A study of Mus musculus with 40 samples.

Results

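The interaction of doxorubicin and anti-Müllerian hormone (AMH) was measured in the uterus of prepubertal mice 4 h after treatment. It asks whether AMH shifted gene expression differently in uteri that also received doxorubicin than in uteri that did not. For each gene it is the difference in log2(FPKM + 1) between doxorubicin with AMH and doxorubicin alone, minus the difference between AMH alone and vehicle. FPKM scales the fragments of a gene to its length and to the sequencing depth of the library. A positive interaction means that the AMH effect was more positive under doxorubicin, and a negative interaction that it was more negative. The contrast used 20 of the 40 bulk RNA-seq libraries of the series, and 15136 of the 54532 genes in the table, those that reached 1 FPKM in 5 or more of the 20 libraries. Its 4 groups had 5 libraries each: doxorubicin (3 mg/kg) with AMH (0.75 mg/kg), doxorubicin alone (3 mg/kg), AMH alone (0.75 mg/kg), and vehicle (PBS or saline). Per the study's design text the mice were at postnatal day 25 and doxorubicin was given weekly, 2 doses in all, with AMH given alongside it in the combined group. The other 20 libraries hold the same groups at 24 h. Replicates are called biological in the labels, which do not say whether a library came from 1 mouse or a pool, so p-values measure the spread between libraries.

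AMH is a ligand of the TGF-β superfamily that makes the Müllerian ducts regress in male embryos. It binds its own type II receptor, AMHR2, and passes the signal through BMP-type receptors and SMAD proteins to target genes such as the Id genes, which encode inhibitors of differentiation. Doxorubicin is an anthracycline that traps topoisomerase II on DNA, breaks the DNA and activates the transcription factor p53. The uterus is a derivative of the Müllerian ducts and keeps AMHR2 in its stroma and muscle.

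Reads per library, rebuilt from FPKM and gene length, ranged from 17112174 to 27364773 at 4 h. All 14 genes of uterine identity and stroma were above 0 in each of the 20 libraries. On the first principal component, which took 24.7% of the variance, the AMH-alone libraries lay apart from the rest. Scores were -11.6 to 15.5 with doxorubicin and AMH, -20.7 to -2.47 with doxorubicin alone, 19.6 to 31.6 with AMH alone, and -37.1 to -5.79 with vehicle. Markers of oviduct and ciliated cells, a neighbouring tissue, were uneven: their summed FPKM was 7.93 to 1090 with doxorubicin and AMH, 5.83 to 388 with doxorubicin alone, 7.25 to 57.3 with AMH alone, and 6.45 to 150 with vehicle. The markers Tmem212, Dynlrb2 and Fam183b were listed at 0 in 11, 8 and 7 of the 20 libraries. Doxorubicin-with-AMH replicate 5, doxorubicin replicates 3 and 4 and vehicle replicate 4 held the most oviduct signal. Their mean log2(FPKM + 1) of these markers was more than 1 above the median of the 40 libraries. Results are also given without these 4 libraries. Vehicle replicate 5, at 0.949 above the median, was just under that cut and was kept. Markers of squamous epithelium, which lines the lower reproductive tract, were uneven too, at 7.55 to 61.7 FPKM in sum with doxorubicin and AMH, 12.3 to 3090 with doxorubicin alone (highest in replicate 2), 7.03 to 411 with AMH alone (highest in replicate 4) and 19.1 to 1330 with vehicle (highest in replicate 3). Of 13 such markers Krt6a was listed at 0 in 14 libraries and Sprr3 in 6. Ovarian markers summed to 13.7 to 18.3 FPKM with doxorubicin and AMH, 8.53 to 192 with doxorubicin alone (highest in replicate 4), 14.4 to 19.5 with AMH alone and 10.8 to 15.8 with vehicle. None of the tested markers of oviduct (12), squamous epithelium (7) or ovary (3) had an interaction past the threshold. All 12 oviduct markers had a positive value (median 0.39, against 0.0024 over all genes). Positive values were also those of 2 of the 7 squamous and 2 of the 3 ovarian markers. In bulk RNA, fewer cells of a type and less RNA per cell cannot be told apart.

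**Figure D1:**
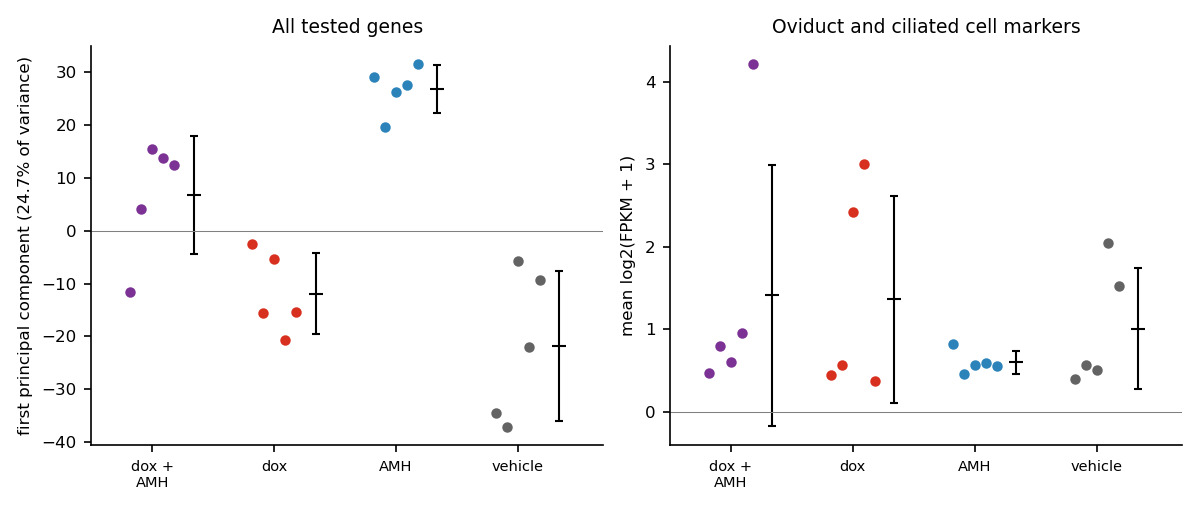
Score on the first principal component of all tested genes (left, arbitrary units) and mean log2(FPKM + 1) of the oviduct and ciliated cell markers (right) in each 4 h library, with group mean and SD beside the points. The 5 AMH-alone libraries score 19.6 to 31.6 on the component, above every other library. For oviduct markers, 4 libraries of the other 3 groups stand out, with vehicle replicate 5 next at 1.53.

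The interaction passed an adjusted p of 0.05 in 1290 genes, or 8.52% of those tested (limma, Benjamini-Hochberg). It was positive in 738 genes (4.88%) and negative in 552 (3.65%). Among the 738 positive genes the median difference was -0.01 for doxorubicin with AMH against doxorubicin alone and -0.58 for AMH alone against vehicle. Among the 552 negative genes those medians were -0.02 and 0.60. AMH added to doxorubicin changed 1 of the 738 and 2 of the 552, while AMH alone lowered 723 of the 738 and raised 526 of the 552 past the threshold. The AMH-alone group had the lowest mean in 709 of the 738 and the highest in 511 of the 552, and vehicle lay at the other end in 720 and 491. Doxorubicin alone against vehicle had medians of -0.29 and 0.26 in the same gene sets. Over all tested genes, AMH added to doxorubicin changed 12 genes (0.0793%) and AMH alone changed 5381 (35.6%). Doxorubicin alone against vehicle changed 423 (2.79%), and doxorubicin with AMH against AMH alone changed 692 (4.57%). These comparisons share libraries with the interaction and with each other, so their counts are not independent. The 738 and 552 genes were chosen by a contrast of the same group means. That choice favours a low AMH-alone and a high vehicle mean in the 738, and the reverse in the 552. The order of the groups was not counted over all genes.

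The count of interactions depended on the libraries and the fit. It was 382 (142 positive, 240 negative) without the 4 libraries high in oviduct markers, 346 of them among the 1290. With the 24 h libraries in the same fit it was 0, so that every call below was lost there, the smallest adjusted p was 0.097, and 2312 genes had an unadjusted p under 0.05. The fold changes are identical there by construction, and the median standard error of the interaction was 0.17 in the 4 h libraries alone and 0.21 with all 40. Leaving out a single library gave 720 without vehicle replicate 2, 744 without doxorubicin replicate 1, 758 without vehicle replicate 4, 801 without AMH replicate 3 and 1984 without doxorubicin replicate 5. Without the libraries highest in squamous markers, 1 at a time, it was 863 (doxorubicin replicate 2), 1009 (AMH replicate 4) and 1495 (vehicle replicate 3).

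Tsc22d3, which encodes the glucocorticoid-induced leucine zipper protein GILZ, had the smallest interaction p of all genes (chrX:140539528-140600659, minus strand, build mm10). It had 14.5, 20.1, 18.8, 17.7 and 22.8 FPKM in the libraries of doxorubicin with AMH, 22.7, 18.8, 22.4, 17.1 and 19.6 FPKM with doxorubicin alone, 33, 36.9, 34.4, 36.4 and 32.9 FPKM with AMH alone, and 14.1, 14.4, 15.7, 13.8 and 16.3 FPKM with vehicle. Every AMH-alone library was above all 15 others, the doxorubicin-alone libraries were all above the vehicle libraries, and the doxorubicin-with-AMH libraries overlapped both. The AMH difference was -0.10 with doxorubicin (adjusted p = 0.65, limma) and 1.17 without it (adjusted p = 5.4e-07), an interaction of -1.27 ± 0.14 (log2 ± SE, adjusted p = 0.00021).

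Galnt15, a glycosyltransferase that starts mucin-type O-glycosylation, was likewise highest with AMH alone (chr14:32028989-32062197, plus strand). It had 12.6, 16.2, 14.6, 15.9 and 19 FPKM in the libraries of doxorubicin with AMH, 18.7, 12, 14.7, 12.3 and 9.9 FPKM with doxorubicin alone, 43.2, 37.8, 48, 34.3 and 38.4 FPKM with AMH alone, and 9.67, 7.44, 9.35, 7.14 and 12 FPKM with vehicle. The AMH-alone libraries did not overlap any other group, and the interaction was -1.83 ± 0.21 (adjusted p = 0.00044, limma). Kcnip2, an accessory subunit of voltage-gated potassium channels, had 1.17 to 2.72 FPKM with doxorubicin and AMH, 0.92 to 1.86 FPKM with doxorubicin alone, 5.54 to 9.87 FPKM with AMH alone and 0.589 to 1.14 FPKM with vehicle. Its interaction was -1.65 ± 0.24. Abca1, the transporter that exports cholesterol from cells, followed at -1.63 ± 0.24, and its relative Abca8a at -1.57 ± 0.24. Nbl1, a secreted antagonist of BMP ligands, averaged 172 ± 29.3 FPKM with doxorubicin and AMH, 169 ± 25.9 with doxorubicin alone, 313 ± 31.8 with AMH alone and 144 ± 8.4 with vehicle (SD, n = 5 each), an interaction of -1.09 ± 0.16. Camk2n1, an inhibitor of the calcium and calmodulin-dependent kinase CaMKII, was at -1.16 ± 0.16 and Serinc3, a membrane protein of the serine incorporator family, at -0.74 ± 0.11. The adjusted p of these 6 genes was 0.0028 to 0.004 (limma). All 6 were higher with AMH alone than with vehicle, and AMH added to doxorubicin gave differences of -0.07 to 0.43, none past the threshold.

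**Figure D2:**
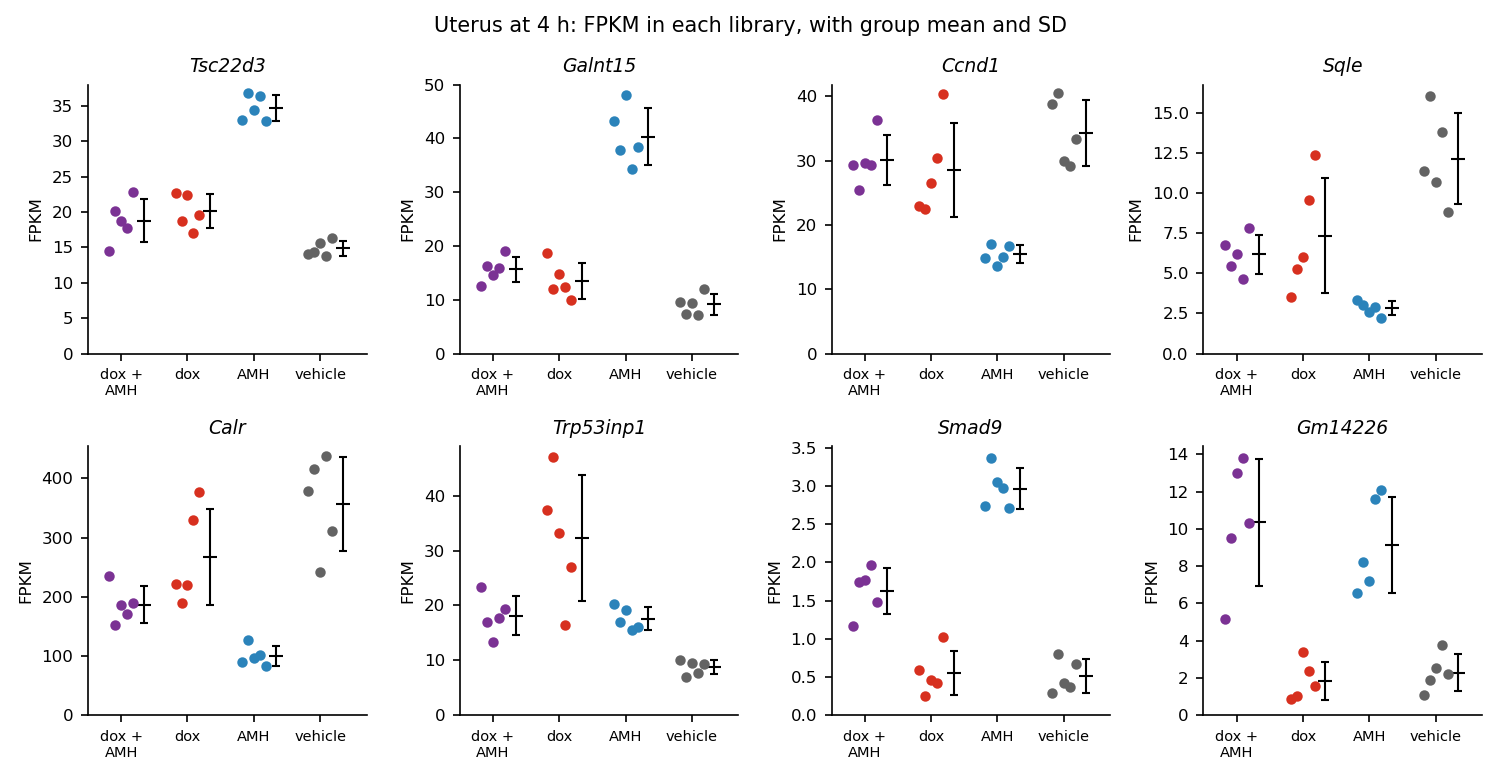
FPKM of 8 genes in each 4 h library (points) with group mean and SD beside them, in uteri given doxorubicin with AMH, doxorubicin alone, AMH alone or vehicle. In Tsc22d3, Galnt15, Ccnd1, Sqle and Calr the AMH-alone libraries stand apart from all others, while in Gm14226 both AMH groups lie above both groups without AMH.

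Among positive interactions Cops3, a subunit of the COP9 signalosome that controls cullin ubiquitin ligases, had the smallest p. It had 16.5, 13.2, 15.4, 14.2 and 14.9 FPKM in the libraries of doxorubicin with AMH, 13.4, 13.3, 13.3, 14.7 and 14.5 FPKM with doxorubicin alone, 10.1, 11.8, 10.3, 11.4 and 10.7 FPKM with AMH alone, and 23.8, 21.6, 16.8, 18.3 and 18.2 FPKM with vehicle. AMH-alone libraries were the lowest and vehicle libraries the highest, with no overlap with the doxorubicin groups. The interaction was 0.89 ± 0.12 (adjusted p = 0.0015, limma). Ccnd1, cyclin D1, which drives cells from G1 into S phase, had 29.3, 25.5, 29.7, 29.4 and 36.3 FPKM in the libraries of doxorubicin with AMH, 22.9, 22.5, 26.5, 30.4 and 40.3 FPKM with doxorubicin alone, 14.8, 17, 13.6, 15 and 16.7 FPKM with AMH alone, and 38.8, 40.5, 30, 29.1 and 33.3 FPKM with vehicle (chr7:144929931-144939925, minus strand). All AMH-alone libraries were below the other 15, which overlapped one another, and the interaction was 1.19 ± 0.19 (adjusted p = 0.0045).

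Other positive genes with a small p included Ltv1, Mettl1, Idh3a and Thop1. Ltv1, an assembly factor of the small ribosomal subunit, had an interaction of 1.17 ± 0.20. Mettl1, which methylates tRNA, was at 1.13 ± 0.20. Idh3a, a subunit of the mitochondrial isocitrate dehydrogenase, was at 0.98 ± 0.17 and Thop1, a peptidase, at 0.72 ± 0.12. Their adjusted p was 0.0059 to 0.0072 (limma). These 4 genes were also lower with doxorubicin alone than with vehicle, with log2 differences of -0.80 to -0.36, while the same difference for Ccnd1 was -0.28 (adjusted p = 0.24). Cops3, Ccnd1 and Mettl1 are each overlapped by another protein-coding gene on the other strand, and whether counting used strand is not given in the sources used here.

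**Figure D3:**
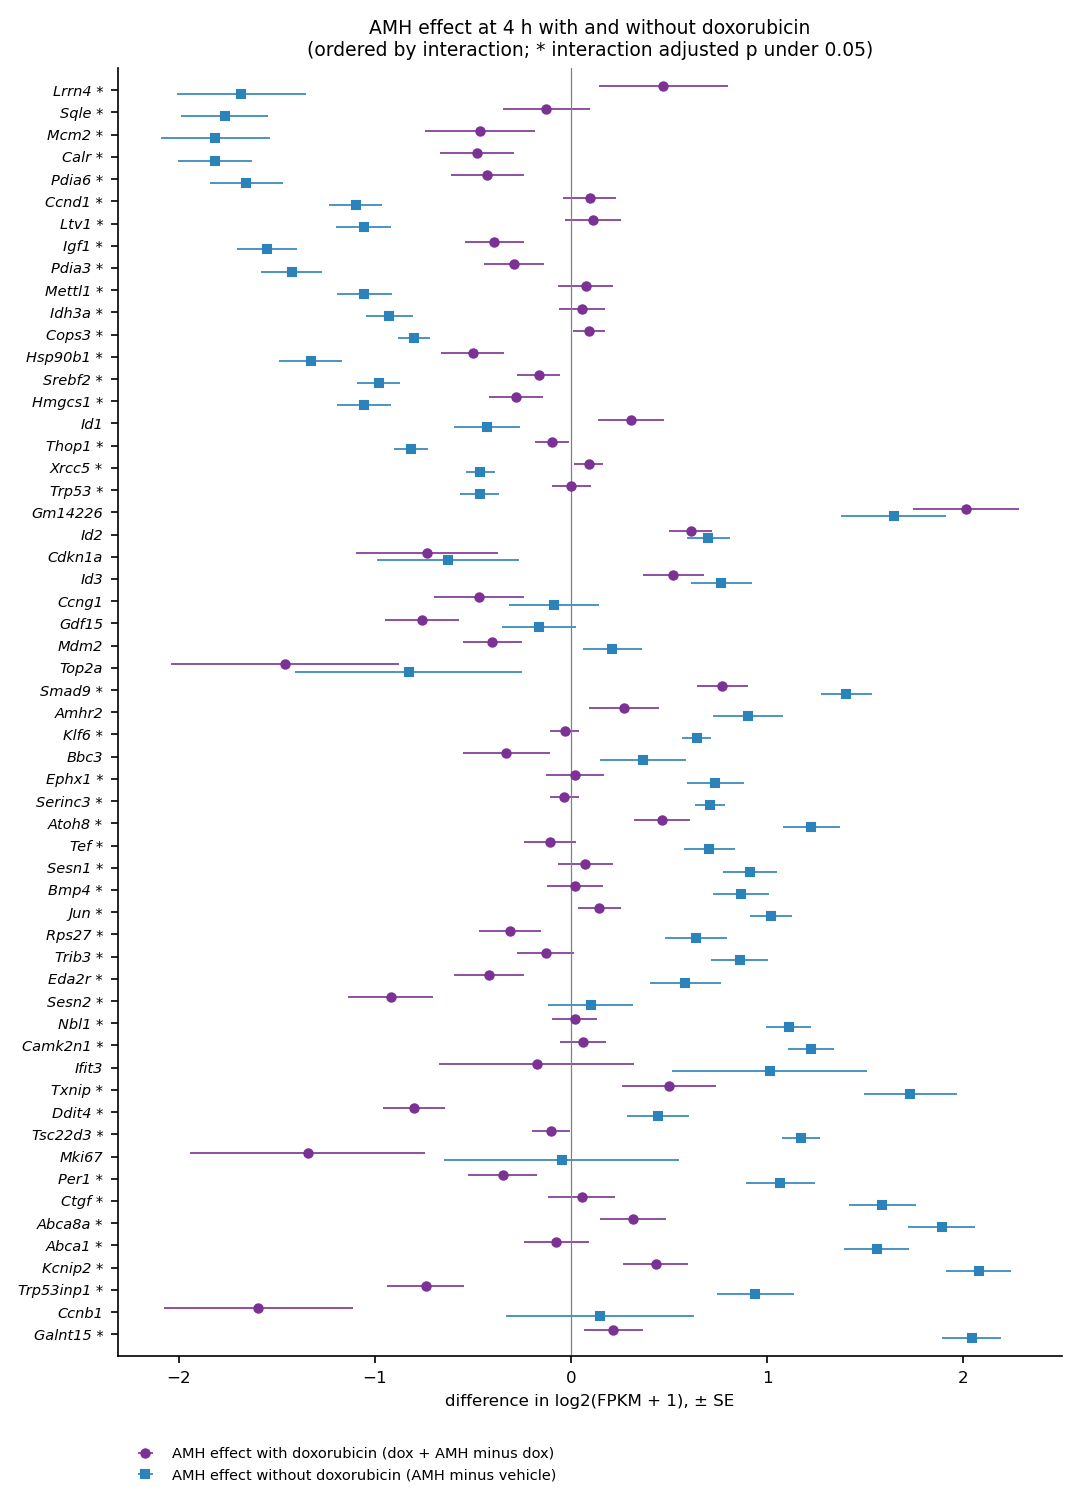
AMH effect (difference in log2(FPKM + 1) ± SE) on the 57 genes described, with doxorubicin (circles) and without it (squares), ordered from the most positive interaction at the top to the most negative. An asterisk marks an interaction adjusted p under 0.05. Circles lie near 0 for most of the genes with an asterisk, and squares lie to the left at the top and to the right towards the bottom.

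Genes of cholesterol metabolism had the highest share of positive interactions among the lists examined: 12 of 23 tested members were positive past the threshold, against 4.88% of all genes, and none was negative. The list's median interaction was 0.61, against 0.0024 over all genes. AMH added to doxorubicin changed none (median -0.22), against 0.0793% of all genes. AMH alone lowered 20 of the 23 and raised 1 (median -0.98), against 19.2% of all genes lowered and 16.3% raised. Sqle, squalene epoxidase, had 6.8, 5.48, 6.24, 4.67 and 7.81 FPKM in the libraries of doxorubicin with AMH, 3.52, 5.3, 6.05, 9.56 and 12.4 FPKM with doxorubicin alone, 3.35, 3.04, 2.59, 2.91 and 2.2 FPKM with AMH alone, and 11.4, 16.1, 10.7, 13.8 and 8.85 FPKM with vehicle (chr15:59315077-59331192, plus strand). Every AMH-alone library was below the other 15, and every vehicle library was above the doxorubicin-with-AMH libraries. The interaction was 1.64 ± 0.31 (adjusted p = 0.0085, limma). Srebf2, the transcription factor that turns this pathway on, was at 0.81 ± 0.15 (adjusted p = 0.0085). Idi1, Hsd17b7, Cyp51, Nsdhl, Dhcr7, Hmgcs1, Msmo1 and Lss, which encode enzymes of the pathway, were also past the threshold. The 12 interactions ranged from 0.43 to 1.64. Without the 4 libraries high in oviduct markers, 3 of the 23 passed and the median was 0.60.

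Genes of the endoplasmic reticulum and its stress response had calls in both directions: 7 of 21 were positive and 4 negative, against 4.88% and 3.65% of all genes. AMH alone raised 3 and lowered 16 of the 21, against 16.3% and 19.2% of all genes. The positive genes are the chaperones and folding enzymes Pdia3, Calr, Pdia6, Sdf2l1, Pdia4 and Hsp90b1 and the asparagine synthetase Asns. The negative genes are Trib3, Ddit3, Herpud1 and Sesn2, of which Ddit3 encodes the transcription factor CHOP and Trib3 a pseudokinase induced by it. Calr, the calcium-binding chaperone calreticulin, had 235, 153, 186, 171 and 189 FPKM in the libraries of doxorubicin with AMH, 222, 189, 220, 329 and 377 FPKM with doxorubicin alone, 89.7, 127, 96.1, 102 and 82.1 FPKM with AMH alone, and 378, 416, 242, 437 and 311 FPKM with vehicle. The AMH-alone libraries were below all others and the doxorubicin-with-AMH libraries were below all vehicle libraries. AMH differences were -0.48 with doxorubicin (adjusted p = 0.26, limma) and -1.82 without it (adjusted p = 5e-06), an interaction of 1.34 ± 0.27 (adjusted p = 0.0095). Pdia3, a protein disulphide isomerase that works with calreticulin and is overlapped by a gene on the other strand, was at 1.13 ± 0.22. Trib3 had 0.797 to 1.13 FPKM with doxorubicin and AMH, 0.588 to 1.62 with doxorubicin alone, 2.25 to 3.38 with AMH alone and 0.666 to 1.31 with vehicle, an interaction of -0.99 ± 0.20 (adjusted p = 0.01). The AMH-alone values of Trib3 lay above all others. Without the 4 libraries high in oviduct markers, 4 of the 21 were positive and 3 negative.

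Promoters of endoplasmic reticulum chaperones are known for the stress element of CCAAT, 9 bases and CCACG, bound by NF-Y and ATF6, and they are shown because several of these genes moved together. In windows of 250 bases before to 50 after the annotated start (RefSeq, GRCm38.p6), this element was found on either strand in 0.119% of 32851 windows. Counted by gene, it was in 0.137% of the 27025 genes with a window. Among the list members with a window, 7 of 19 held it. Hspa5, Canx, Dnajc3 and Creld2 held it, and their interactions did not pass (adjusted p = 0.081, 0.08, 0.54 and 0.37, limma). Of the 7 members with a window and a positive interaction past the threshold, only 3 held the element. Stretches of 170 bases holding it are given, 5′ to 3′ on the gene's strand, for these 3, at chr8:84846932-84847101, minus strand for Calr, chr12:17266419-17266588, plus strand for Pdia6 and chr10:86705445-86705614, minus strand for Hsp90b1, with the element in capitals (reverse complement in Calr and Hsp90b1). A sterol-element core, TCACNCCAC, was in 1.24% of windows and in 1.44% of genes with a window. For the cholesterol genes it was in 1 of 15 members with a window, Hmgcs1. That stretch is shown at chr13:119690181-119690350, plus strand, with the core in capitals.
Calr: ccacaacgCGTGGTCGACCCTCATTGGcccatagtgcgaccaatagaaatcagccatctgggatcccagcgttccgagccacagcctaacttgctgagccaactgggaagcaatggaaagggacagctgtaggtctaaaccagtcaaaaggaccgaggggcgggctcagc
Pdia6: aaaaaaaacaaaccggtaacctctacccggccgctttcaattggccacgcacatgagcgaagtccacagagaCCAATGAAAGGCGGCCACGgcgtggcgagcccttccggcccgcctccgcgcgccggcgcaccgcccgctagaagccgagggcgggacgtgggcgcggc
Hsp90b1: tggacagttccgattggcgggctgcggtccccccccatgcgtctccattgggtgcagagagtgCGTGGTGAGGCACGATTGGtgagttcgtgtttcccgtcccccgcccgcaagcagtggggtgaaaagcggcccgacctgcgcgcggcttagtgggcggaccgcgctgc
Hmgcs1: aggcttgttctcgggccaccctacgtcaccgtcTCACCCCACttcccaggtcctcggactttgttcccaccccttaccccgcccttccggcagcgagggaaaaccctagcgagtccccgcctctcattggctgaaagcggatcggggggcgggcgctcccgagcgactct
Pdia6, a disulphide isomerase, averaged 63.2 ± 10.9 FPKM with doxorubicin and AMH, 86.6 ± 23.4 with doxorubicin alone, 35.7 ± 3.01 with AMH alone and 118 ± 31.5 with vehicle (SD, n = 5 each). Its interaction was 1.23 ± 0.26 (adjusted p = 0.012, limma). Hsp90b1, the chaperone GRP94, was at 0.83 ± 0.23 (adjusted p = 0.031) and Hmgcs1, which makes HMG-CoA, at 0.77 ± 0.20 (adjusted p = 0.022). With 1 library left out in turn, Hsp90b1 passed in 11 of 20 fits. These 3 genes were chosen for their promoters after their values were seen. A match in these letters is a description of the sequence and does not show binding.

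Calls among glucocorticoid-responsive and circadian clock genes were negative, while 5 of 19 members of each list had a positive value that did not pass. Of 19 tested glucocorticoid-responsive genes 6 were negative past the threshold (Tsc22d3, Per1, Ddit4, Pdk4, Klf15 and Klf9), and of 19 clock genes 8 (among them Per1, Tef, Rora, Hlf, Nr1d2, Dbp and Per3). None was positive, and 3.65% of all genes were negative. The list medians were -0.56 and -0.41. AMH alone raised 9 and 11 members and lowered 1 in each list, against 16.3% of all genes raised and 19.2% lowered. AMH added to doxorubicin changed none, against 0.0793% of all genes. Per1, a period gene of the clock that glucocorticoids also induce, had 7.49, 13.2, 9.76, 8.1 and 15.8 FPKM in the libraries of doxorubicin with AMH, 13.3, 10.4, 19.3, 14.4 and 12 FPKM with doxorubicin alone, 15.9, 19.4, 17.3, 18.2 and 16.4 FPKM with AMH alone, and 5.52, 7.81, 8.84, 8.52 and 8.72 FPKM with vehicle. AMH-alone libraries were all above those of vehicle and of doxorubicin with AMH, which overlapped each other, and doxorubicin-alone libraries were all above vehicle and overlapped AMH alone. Its interaction was -1.41 ± 0.25 (adjusted p = 0.0069, limma). Tef, a clock output factor, was at -0.81 ± 0.19 (adjusted p = 0.014). Without the 4 libraries high in oviduct markers, 4 glucocorticoid and 5 clock genes passed.

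Ddit4, which encodes the mTORC1 inhibitor REDD1 and answers to both glucocorticoids and DNA damage, differed in shape. It had 23.6, 21.9, 17.8, 21.1 and 19.5 FPKM in the libraries of doxorubicin with AMH, 33.4, 57.5, 40.2, 30.4 and 28.6 FPKM with doxorubicin alone, 29.4, 23.8, 25.6, 26.2 and 22.6 FPKM with AMH alone, and 22.1, 14.7, 22.7, 18.8 and 15.2 FPKM with vehicle. Doxorubicin-alone libraries included the highest values, and each of them was above every library of doxorubicin with AMH. Differences were -0.80 for AMH with doxorubicin (adjusted p = 0.056, limma) and 0.44 without it (adjusted p = 0.033), an interaction of -1.24 ± 0.22 (adjusted p = 0.0076).

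**Figure D4:**
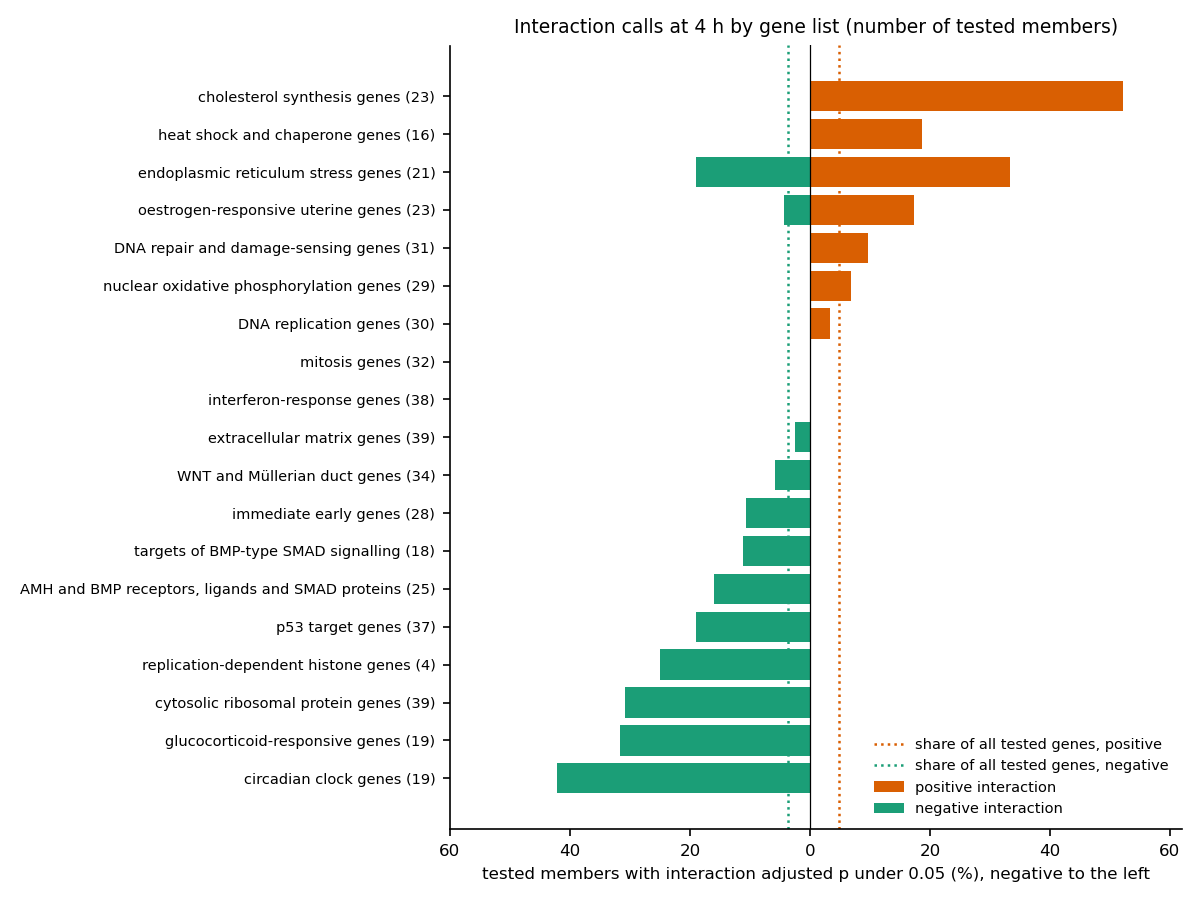
Share of tested members of each pathway list with an interaction adjusted p under 0.05, positive to the right and negative to the left, with the number of tested members in brackets. Dotted lines mark the share of all tested genes, 4.88% positive and 3.65% negative. Cholesterol synthesis genes reach furthest to the right and circadian clock genes furthest to the left.

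Of 37 tested p53 targets, 7 had a negative interaction and none a positive one past the threshold, against 3.65% and 4.88% of all genes, with a list median of -0.40. Doxorubicin alone raised 22 of the 37 over vehicle, against 1.22% of all genes. AMH added to doxorubicin changed none (median -0.37), against 0.0793% of all genes. AMH alone changed 15 (9 raised, 6 lowered), or 40.5%, near the 35.6% of all genes. The 7 negative genes were Trp53inp1, Sesn1, Eda2r, Fas, Ddit4l, Ephx1 and Sesn2. Trp53inp1, a p53-induced nuclear protein of autophagy and cell death, had 23.3, 17, 13.4, 17.8 and 19.3 FPKM in the libraries of doxorubicin with AMH, 37.5, 47.1, 33.3, 16.5 and 27.1 FPKM with doxorubicin alone, 20.3, 16.9, 19.2, 15.5 and 16.1 FPKM with AMH alone, and 10.1, 6.95, 9.56, 7.74 and 9.24 FPKM with vehicle (chr4:11156431-11174379, plus strand). All 15 treated libraries were above the vehicle libraries, and 4 of the 5 doxorubicin-alone libraries were above all of doxorubicin with AMH. The differences were -0.74 for AMH with doxorubicin (adjusted p = 0.15, limma), 0.94 for AMH without it (adjusted p = 0.0012) and 1.71 for doxorubicin against vehicle (adjusted p = 0.00018). The interaction was -1.68 ± 0.28 (adjusted p = 0.0054).

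The other p53 targets described took several shapes. Sesn1, a sestrin that restrains mTORC1, had 13.1 to 23.4 FPKM with doxorubicin and AMH, 13.1 to 24.1 with doxorubicin alone, 25.2 to 29 with AMH alone and 12.3 to 17 with vehicle, so that the AMH-alone libraries were the highest (interaction -0.84 ± 0.20). Its relative Sesn2 had 7.49, 7.71, 4.38, 7.84 and 7.8 FPKM with doxorubicin and AMH, 13.4, 21.6, 16, 6.47 and 17 FPKM with doxorubicin alone, 2.75 to 4.08 FPKM with AMH alone and 2.22 to 3.67 FPKM with vehicle. Its mean was highest with doxorubicin alone, where replicate 4 lay among the doxorubicin-with-AMH libraries. Its interaction was -1.02 ± 0.31 (adjusted p = 0.045, limma), and AMH differences were -0.92 with doxorubicin and 0.10 without it, neither past the threshold. Eda2r, a receptor of the TNF family, was at -1.0 ± 0.26 (adjusted p = 0.023, a call that is lost with no filter on low values) and Ephx1, an epoxide hydrolase, at -0.71 ± 0.21 (adjusted p = 0.038). The p53 gene itself, Trp53, had a positive interaction of 0.46 ± 0.14 (adjusted p = 0.046). With 1 library left out in turn, Sesn2, Ephx1 and Trp53 passed in 2, 6 and 4 of 20 fits. Without the 4 libraries high in oviduct markers, 9 of the 37 targets were negative and none positive.

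The p53 targets Cdkn1a, Mdm2, Ccng1, Gdf15 and Bbc3 had no interaction past the threshold. Cdkn1a, the cell-cycle inhibitor p21, had 35.6, 37.8, 16.3, 32 and 29.3 FPKM in the libraries of doxorubicin with AMH, 38.6, 86.5, 79.8, 14.7 and 69.7 FPKM with doxorubicin alone, 1.34, 1.92, 2.12, 3.04 and 2.23 FPKM with AMH alone, and 3.62, 4.6, 5.07, 4.41 and 1.88 FPKM with vehicle. All doxorubicin libraries, with or without AMH, were above all libraries without doxorubicin. Its interaction was -0.11 ± 0.51 (adjusted p = 0.93, limma) and takes the opposite sign with a pseudocount of 0.1, at 0.07. Mdm2, the ubiquitin ligase that degrades p53, was at -0.61 ± 0.21 (adjusted p = 0.08), cyclin G1, Ccng1, at -0.38 ± 0.32 (0.5), the stress hormone Gdf15 at -0.60 ± 0.26 (0.17) and the death gene Bbc3 at -0.70 ± 0.31 (0.17). Doxorubicin replicate 4 held the lowest value of its group in 20 of the 22 targets that doxorubicin raised, and it is one of the libraries high in oviduct markers. Without it, adjusted p was 0.013 for Mdm2 (-0.77), 0.039 for Ccng1 (-0.67) and 0.014 for Bbc3 (-0.96). Leaving out the lowest library raises the doxorubicin-alone mean, so a more negative interaction follows from that choice. Cdkn1a and Gdf15 passed in no fit without 1 library (lowest adjusted p 0.39 and 0.069, limma). The part of doxorubicin replicate 4 in the interaction of the p53 targets was otherwise not tested.

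Some genes answered to AMH both with and without doxorubicin. Gm14226, a predicted protein-coding gene, had 5.17, 9.5, 13, 13.8 and 10.3 FPKM in the libraries of doxorubicin with AMH, 0.853, 1.01, 3.36, 2.36 and 1.57 FPKM with doxorubicin alone, 6.54, 8.24, 7.19, 11.6 and 12.1 FPKM with AMH alone, and 1.05, 1.86, 2.52, 3.77 and 2.21 FPKM with vehicle (chr2:155018266-155027104, plus strand). Every library with AMH was above every library without it, whether doxorubicin was given or not. The AMH difference was 2.02 with doxorubicin (adjusted p = 0.0031, limma) and 1.64 without it (adjusted p = 0.00015), and the interaction was 0.37 ± 0.38 (adjusted p = 0.6). Gm14226 lies on the same strand as the gene nonagouti, so reads may be shared between them. Id2 had 59 to 87.5 FPKM with doxorubicin and AMH, 40.9 to 65.3 with doxorubicin alone, 66.4 to 72.4 with AMH alone and 38.1 to 44.9 with vehicle. AMH raised it by 0.61 with doxorubicin (adjusted p = 0.036) and 0.70 without it (adjusted p = 9.5e-05), an interaction of -0.09 ± 0.15 (adjusted p = 0.78). An adjusted p above the threshold does not show that the AMH effects were equal.

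Smad9, a BMP-type SMAD that is itself a target of the pathway, rose with AMH in both settings and less under doxorubicin. It had 1.17, 1.74, 1.77, 1.96 and 1.48 FPKM in the libraries of doxorubicin with AMH, 0.584, 0.255, 0.465, 0.419 and 1.02 FPKM with doxorubicin alone, 2.74, 3.37, 3.05, 2.97 and 2.71 FPKM with AMH alone, and 0.284, 0.806, 0.426, 0.364 and 0.671 FPKM with vehicle (chr3:54755582-54801257, plus strand). Both AMH groups were above both groups without AMH, and AMH-alone libraries were above all of doxorubicin with AMH. The AMH difference was 0.77 with doxorubicin (adjusted p = 0.023, limma) and 1.40 without it (adjusted p = 2.9e-06), an interaction of -0.63 ± 0.18 (adjusted p = 0.04). The interaction's adjusted p was 0.15 with a pseudocount of 0.1. Atoh8, a transcription factor induced by BMP signals, was at -0.76 ± 0.20 (adjusted p = 0.028). Without the libraries high in oviduct markers their adjusted p was 0.11 for Smad9 and 0.093 for Atoh8, and with 1 library left out in turn they passed in 6 and 15 of 20 fits.

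These were the 2 of 18 BMP-type target genes with an interaction past the threshold, both negative, against 3.65% of all genes negative and 4.88% positive. Id3 had an interaction of -0.24 ± 0.22 (adjusted p = 0.54, limma) and Id1 of 0.73 ± 0.24 (adjusted p = 0.061). Id1 passed, as a positive interaction, with a filter at 5 FPKM (adjusted p = 0.046), with library weights (0.021) and in 3 of the 20 fits without 1 library, where its adjusted p ranged from 0.022 to 0.12. A further list held receptors, ligands and SMAD proteins of AMH, BMP and related signals, with some of their regulators. Of its 25 tested members, 4 were negative and none positive past the threshold (Bmp4, Smad3, Smurf1 and Rgmb). The shares of all genes were the same 3.65% and 4.88%, and the list median was -0.18. The ligand gene Bmp4 averaged 7.55 ± 1.05 FPKM with doxorubicin and AMH, 7.54 ± 1.99 with doxorubicin alone, 12.5 ± 1.57 with AMH alone and 6.45 ± 1.41 with vehicle (SD, n = 5 each), an interaction of -0.84 ± 0.20 (adjusted p = 0.017). Amhr2, the receptor gene, averaged 5.57 ± 1.07 FPKM with doxorubicin and AMH, 4.62 ± 2.01 with doxorubicin alone, 7.21 ± 1.4 with AMH alone and 3.39 ± 0.736 with vehicle, an interaction of -0.63 ± 0.25 (adjusted p = 0.12). Without the 4 libraries high in oviduct markers none of the 18 target genes and 1 of the 25 pathway genes passed. Amh itself was below the filter and was not tested.

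Immediate early genes, which answer to growth factors and stress within minutes, had 3 negative interactions among 28 tested and none positive past the threshold, against 3.65% and 4.88% of all genes. Ctgf, a matricellular protein that YAP and TGF-β induce, had 5.55, 6.3, 11.7, 7.53 and 11.1 FPKM in the libraries of doxorubicin with AMH, 7.59, 5.98, 8.97, 10.6 and 6.46 FPKM with doxorubicin alone, 14.7, 19.6, 18.8, 17.2 and 17.2 FPKM with AMH alone, and 4.81, 5.13, 6.51, 4.47 and 4.91 FPKM with vehicle. The AMH-alone libraries were above all others and the vehicle libraries overlapped both doxorubicin groups. Its interaction was -1.53 ± 0.24 (adjusted p = 0.004, limma). The transcription factor genes Klf6 and Jun were at -0.67 ± 0.10 and -0.87 ± 0.15 (adjusted p = 0.004 and 0.0068).

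Of 23 oestrogen-responsive uterine genes 4 were positive (Ccnd1, Igf1, Mcm2 and Ckb) and 1, Txnip, was negative, against 4.88% and 3.65% of all genes. Igf1, the insulin-like growth factor made by the uterine stroma, had 18.9, 17.6, 14.4, 13.8 and 17.3 FPKM in the libraries of doxorubicin with AMH, 22, 24.1, 16.7, 27.2 and 19.7 FPKM with doxorubicin alone, 11.3, 16.8, 13, 12.2 and 10.1 FPKM with AMH alone, and 35.9, 50.8, 33.9, 46 and 29.9 FPKM with vehicle. The vehicle libraries were above all others, and the AMH-alone libraries were at the low end, where 1 of them overlapped both doxorubicin groups. Its interaction was 1.16 ± 0.22 (adjusted p = 0.0084, limma). Txnip, the inhibitor of thioredoxin that also limits glucose uptake, was at -1.23 ± 0.34 (adjusted p = 0.031) and passed in 10 of the 20 fits without 1 library. Without the libraries high in oviduct markers, 3 of the 23 were positive and none negative.

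Of 30 DNA replication genes 29 had a positive interaction and 1, Mcm2, passed the threshold, against 4.88% of all genes (list median 0.59), while AMH alone lowered 27, against 19.2% of all genes. Mcm2, a subunit of the replicative helicase, had 14.7, 7.85, 6.74, 6.11 and 4.78 FPKM in the libraries of doxorubicin with AMH, 8.29, 7.39, 9.16, 16 and 15.4 FPKM with doxorubicin alone, 3.69, 4, 3.4, 3.43 and 3.87 FPKM with AMH alone, and 23.6, 25.1, 8.74, 11.3 and 14.5 FPKM with vehicle. AMH-alone libraries were below all others, vehicle replicates 1 and 2 were the highest, and the interaction was 1.35 ± 0.39 (adjusted p = 0.041, limma), past the threshold in 8 of the 20 fits without 1 library. All 32 mitosis genes had a negative value (median -1.05) and none passed the threshold, and the median was -0.49 without the libraries high in oviduct markers. Their shape differed from that of most called genes. The list median was -1.10 for AMH added to doxorubicin, -0.12 for AMH alone and 1.135 for doxorubicin alone against vehicle. None of the 32 passed in these comparisons either. Libraries of the same group differed widely in mitosis genes: Top2a, the topoisomerase that doxorubicin traps, had 2.3 to 22.7 FPKM with doxorubicin and AMH, 8 to 25.6 with doxorubicin alone, 1.96 to 8.74 with AMH alone and 2.46 to 16.2 with vehicle. Its interaction was -0.63 ± 0.82 (adjusted p = 0.7), and 0.10 without the libraries high in oviduct markers. The proliferation marker Mki67 was at -1.30 ± 0.85 (0.37) and cyclin B1, Ccnb1, at -1.74 ± 0.68 (0.11).

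Cytosolic ribosomal protein genes were negative in 12 of 39, against 3.65% of all genes, with none positive past the threshold and a list median of -0.34. AMH added to doxorubicin changed none, against 0.0793% of all genes, and AMH alone raised 21 of the 39, against 16.3%. Rps27, a protein of the small subunit, was at -0.95 ± 0.22 (adjusted p = 0.017, limma). Ribosomal protein genes have many near-identical copies in the genome, and their values are uncertain to that extent. Without the libraries high in oviduct markers 5 of the 39 passed, all negative. At 24 h 38 of the 39 had a positive interaction (median 0.21), and none passed the threshold. In the difference between times 30 of the 39 were negative at an unadjusted p under 0.05 (limma), against 3.78% of all genes in either direction. None passed after adjustment. Of 31 DNA repair genes 3 were positive at 4 h (Xrcc5, Nbn and Xrcc6), against 4.88% of all genes. Xrcc5, the large subunit of the Ku complex that joins broken ends, was at 0.55 ± 0.11 (adjusted p = 0.0085). Of 16 heat shock and chaperone genes 3 were positive (Hspd1, Stip1 and Hsp90aa1), against the same share. Without the libraries high in oviduct markers 1 repair gene and no heat shock gene passed. Of 38 interferon-response genes none passed in either direction (median -0.38, and -0.17 without the libraries high in oviduct markers). Ifit3, an interferon-induced antiviral gene with a near-identical copy, had 12.1 to 74 FPKM with doxorubicin and AMH, 16.7 to 116 with doxorubicin alone, 7.89 to 23 with AMH alone and 4.14 to 7.19 with vehicle, an interaction of -1.19 ± 0.70 (adjusted p = 0.31).

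Of markers of other cell types, interactions were called in 2 of 7 mesothelial (28.6%), 3 of 14 endothelial (21.4%), 1 of 5 skeletal muscle (20%) and 1 of 8 T, B and NK cell markers (12.5%), against 8.52% of all genes. The 2 mesothelial markers, Lrrn4 and Bnc1, were positive. Lrrn4 had 3.33, 4.02, 3.54, 5.37 and 4.04 FPKM in the libraries of doxorubicin with AMH, 2.56, 2.87, 2.46, 3.32 and 2.02 FPKM with doxorubicin alone, 1.46, 0.838, 2.9, 0.241 and 0.0114 FPKM with AMH alone, and 11.1, 6.59, 1.95, 4.51 and 4.02 FPKM with vehicle, with the lowest value in AMH replicate 5. Its interaction was 2.15 ± 0.46 (adjusted p = 0.012, limma), and adjusted p was 0.053 without the libraries high in oviduct markers, where no mesothelial marker passed. The summed mesothelial markers were 182 to 283 FPKM with doxorubicin and AMH, 174 to 333 with doxorubicin alone, 134 to 222 with AMH alone and 208 to 324 with vehicle, and no marker of the list was at 0 in any library. None of the markers of uterine epithelium (13 tested), macrophages (13), adipocytes (9), mast cells (6) or red blood cells (5) had an interaction past the threshold, and 1 of 16 smooth muscle genes did. Adipocyte markers were uneven. They summed to 14 to 376 FPKM with doxorubicin and AMH (median 17.4) and 15.7 to 177 with doxorubicin alone (median 64.7). The sums were 19.1 to 428 with AMH alone (median 165) and 76.2 to 341 with vehicle (median 221). The part of cell composition in the interaction was not tested.

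At 24 h the same contrast called none of 15260 genes (limma), and 375 had an unadjusted p under 0.05, 2.46% of those tested. The median standard error of the interaction was 0.166 at 4 h and 0.238 at 24 h. Of the 1290 genes called at 4 h, 1287 were tested at 24 h, and 1129 (87.7%) had the same sign, against 66.9% of the 14827 genes tested at both times. The median size of their interaction was 0.59 at 4 h, where the genes were chosen, and their median interaction at 24 h, taken as positive in the direction of 4 h, was 0.23. Of these genes 17 had an unadjusted p under 0.05 at 24 h, 16 with the sign of 4 h. Tsc22d3 was at -0.58 (unadjusted p = 0.28) and Sqle at 0.86 (unadjusted p = 0.25). Eda2r was at -0.93 (unadjusted p = 0.086), close to its 4 h value. The list median of cytosolic ribosomal protein genes changed sign, from -0.34 at 4 h to 0.21 at 24 h. The difference between the 2 times was tested across all 40 libraries, and none of 16226 genes passed, while 614 had an unadjusted p under 0.05 (3.78%). The interaction at 4 h is not shown to differ from that at 24 h for any gene.

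**Figure D5:**
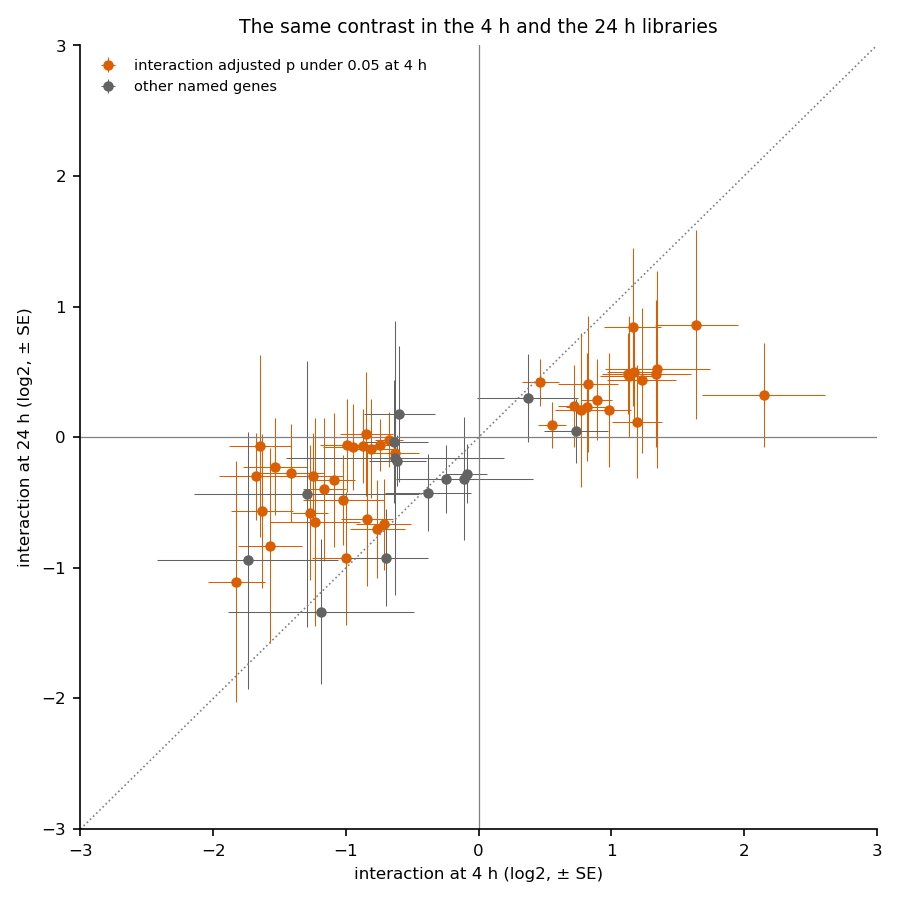
Interaction at 4 h (horizontal axis, log2 ± SE) and at 24 h (vertical axis, log2 ± SE) for the 57 genes described, each from its own 20 libraries, with the line of equal values dotted. Most genes with an adjusted p under 0.05 at 4 h lie between the horizontal axis and the line of equal values, and many of their SE bars at 24 h reach 0.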

How the data were processed

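Per the labels' protocols, a Qiagen kit was used for RNA and Novogene built the libraries. FPKM values for each gene were deposited by the authors in a single file, which also gives positions and lengths per the file headers, and the submitters' processing notes name build mm10. Aligner, counter and strandedness: not given in the sources used here. FPKM times gene length gave whole reads in 100% of values (tolerance 0.01). Each value was used as log2(FPKM + 1), which understates changes of low genes.

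Groups were fitted with limma 3.58.1 in R 4.3.3 (the data.table package, version 1.17.8, for reading), with an intensity trend, and p-values (two-sided) were adjusted by Benjamini-Hochberg over all genes tested, with a threshold of 0.05. The 20 libraries at 4 h gave the interaction and the 4 comparisons of treatments, the 20 at 24 h gave the same contrast, and all 40 the difference between times. Voom on the rebuilt reads was an alternative. No p-value was computed for a list. The steps were tested on simulated data. Figures used matplotlib 3.10.9 in Python 3.11.15.

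The gene set, lists and naming rule were chosen with earlier results of these data known. Named genes were the 10 protein-coding genes with the smallest p in each direction (highest group mean of 2 FPKM or more), up to 3 members of each list with an unadjusted p under 0.05, and a fixed set of 34; a part of the 118 is printed, and some list members are not reported here. Of these, 18 are overlapped by another protein-coding gene. Libraries of the same group all differed by more than sampling noise (chi-square of at least 13 per degree of freedom, Pearson correlations 0.922 to 0.979).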

Additional observations from a re-analysis of the deposited data

Results flagged for a closer look

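The AMH effect differed between uteri with and without doxorubicin, by the interaction term at 4 h (limma, adjusted p under 0.05), in 43 of the 57 genes described. Many of the 57 were named for a small interaction p, so this share follows from the choice. Of all tested genes 8.52% passed. With all 40 libraries in the fit, each of the 43 calls was lost. The highest log2 interactions were those of Lrrn4 (2.15), Sqle (1.64), Mcm2 (1.35), Calr (1.34), Pdia6 (1.23) and Ccnd1 (1.19). Next came Ltv1 (1.17), Igf1 (1.16), Mettl1 (1.13), Pdia3 (1.13), Idh3a (0.98), Cops3 (0.89) and Hsp90b1 (0.83). Lower positive values were those of Srebf2 (0.81), Hmgcs1 (0.77), Thop1 (0.72), Xrcc5 (0.55) and Trp53 (0.46). The most negative were those of Galnt15 (-1.83), Trp53inp1 (-1.68), Kcnip2 (-1.65), Abca1 (-1.63), Abca8a (-1.57), Ctgf (-1.53) and Per1 (-1.41). These were followed by Tsc22d3 (-1.27), Ddit4 (-1.24), Txnip (-1.23), Camk2n1 (-1.16), Nbl1 (-1.09), Sesn2 (-1.02) and Eda2r (-1.0). Further negative values were those of Trib3 (-0.99), Rps27 (-0.95), Jun (-0.87), Sesn1 (-0.84), Bmp4 (-0.84), Tef (-0.81) and Atoh8 (-0.76). The smallest were those of Serinc3 (-0.74), Ephx1 (-0.71), Klf6 (-0.67) and Smad9 (-0.63).

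Within groups, 1 library stood far from the other 4 in 12 of 228 combinations of gene and group, and chance alone gives about 1 in 20. In the doxorubicin-with-AMH group these were Mettl1 in replicate 5 (8.71 FPKM) and Sesn2 in replicate 3 (4.38 FPKM). In the doxorubicin group these were Amhr2 in replicate 4 (8.18 FPKM), Ifit3 in replicate 3 (116 FPKM) and Serinc3 in replicate 1 (142 FPKM). In the AMH group these were Pdia3 in replicate 2 (143 FPKM), Pdia6 in replicate 2 (41 FPKM), Tef in replicate 2 (28.8 FPKM) and Trib3 in replicate 5 (3.38 FPKM). In the vehicle group these were Eda2r in replicate 5 (7.25 FPKM), Gdf15 in replicate 3 (0.206 FPKM) and Sesn1 in replicate 5 (17 FPKM).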

How the results depend on the processing

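The interaction at 4 h called 1290 genes, and 650 with no filter on low values, 382 without the libraries high in oviduct markers and 0 with all 40 libraries in the fit. It stayed within 1.5 times under the other scaling, pseudocount, filter, weighting, voom and prior alternatives (1261 to 1797). AMH against vehicle called 3321 with all 40 libraries. Doxorubicin with AMH against doxorubicin called 19 with library weights, 22 with voom, 4 without the high-oviduct libraries and 2 with all 40. Doxorubicin against vehicle called 155 with no filter, 96 without the high-oviduct libraries and 81 with all 40, and doxorubicin with AMH against AMH called 378, 457 and 35, and 1341 with library weights. The 24 h interaction called 1 with no filter and 1 without the high-oviduct libraries. The cause of these changes was not tested. Leaving out samples also lowers power, and the part of that was not tested either.

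Leaving out 1 library gave 720 to 1984 for the interaction at 4 h, 4387 to 5560 for AMH against vehicle, 4 to 61 for doxorubicin with AMH against doxorubicin (highest without doxorubicin replicate 5, lowest without doxorubicin-with-AMH replicate 3), 77 to 1334 for doxorubicin against vehicle (lowest without vehicle replicate 2, highest without doxorubicin replicate 5), 254 to 809 for doxorubicin with AMH against AMH (lowest without AMH replicate 5), and 0 throughout for the 24 h interaction and for the difference between times. Of the 43 described genes with a call, 35 kept it in all 20 such fits. Sesn2, Ephx1, Trp53, Smad9, Atoh8, Mcm2, Txnip and Hsp90b1 lost it in at least 1. Without the high-oviduct libraries Txnip, Trp53, Smad9, Atoh8, Rps27, Lrrn4, Hsp90b1 and Hmgcs1 lost it. With no filter on low values Eda2r, Txnip, Sesn2, Ephx1, Trp53, Smad9, Atoh8, Mcm2, Hsp90b1 and Hmgcs1 lost it, and with voom Sesn2 and Smad9.

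Replicate numbers did not pair the libraries: same-numbered libraries deviated together in 11 of 30 pairs (r over 0.1, range -0.317 to 0.255), and the best match had the same number in 13 of 60. With the replicate block the interaction called 1263 and doxorubicin against vehicle 262, and the adjusted p was 0.064 for Trp53, 0.052 for Smad9 and 0.051 for Mcm2, which lost the call. Signs turned for Cdkn1a (0.072 with a pseudocount of 0.1, 0.080 with voom, -0.52 to 0.096 in the fits without 1 library), Id2 (-0.15 to 0.013 in those fits) and Top2a (0.10 without the high-oviduct libraries), none of them past the threshold.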

Other observations

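Over all genes 4.88% had a positive and 3.65% a negative interaction at 4 h. Of 34 WNT and Müllerian duct genes 2 were negative, the ligand Wnt5b and the WNT antagonist Dkk2 (-0.86 to -0.75), and none was positive. Of 39 extracellular matrix genes 1, the proteoglycan Dcn, was negative, and without the 4 libraries high in oviduct markers 1 was positive and none negative. Of 29 nuclear genes of oxidative phosphorylation 2 were positive, Cycs, which encodes cytochrome c and has pseudogene copies, and Ndufs1, a subunit of complex I that is overlapped by genes on the other strand (0.47 to 1.11). Of 14 endothelial markers 1 was positive, the diaphragm protein gene Plvap, and 2 were negative, Vwf, which encodes von Willebrand factor, and the tight-junction gene Cldn5 (-0.95 to -0.72). Of 8 tested markers of T, B and NK cells 1 was negative, the chemokine gene Ccl5. Of 4 histone genes 1, Hist1h1c, was negative, and of 5 skeletal muscle markers 1, Actn3. Without those 4 libraries 2 WNT and Müllerian duct genes and 2 endothelial markers were negative, and no gene of oxidative phosphorylation, histone gene, T, B and NK cell marker or skeletal muscle marker passed.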
